A study of Mus musculus with 15 samples.

Results

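The genes of 10 lysosomal proteases were followed in gastrocnemius RNA from aged mice with low or high indices of frailty, at rest and after downhill running. They were the cathepsin genes Ctsa, Ctsb, Ctsc, Ctsd, Ctsh, Ctsk, Ctsl, Ctss and Ctsz and the legumain gene Lgmn, 10 of the 55450 genes in the deposited count table. The members were listed by symbol, and all 10 matched 1 Ensembl identifier each. They were chosen by name with earlier results of these data known, including levels and differences over the 4 groups, so these values are given as a description of the members and not as a test of the list.

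Lysosomes are acidic organelles in which proteins taken up from outside the cell or delivered by autophagy are broken down. Cathepsins are made as inactive proenzymes, carried to the lysosome by mannose 6-phosphate receptors and activated there by cleavage, and most are papain-like cysteine proteases, while cathepsin D is an aspartic protease and cathepsin A a serine carboxypeptidase. In skeletal muscle they act in the autophagic turnover of fibre proteins, and in macrophages they digest engulfed material and prepare antigens for MHC class II molecules.

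The mice were female C57BL/6JN animals older than 17 months at study entry, with no transgene or deletion. The Low groups are labelled robust and the High groups frail, by the count of positive markers among treadmill endurance, grip strength, Rotarod performance, body weight and a frailty index, with cut-offs set within the same cohort. Low Control, Low Run and High Run had 4 mice each, and High Control had 3. Control mice stayed sedentary in their cages, and Run mice ran downhill on a treadmill in 2 bouts (13 m/min, decline 22 degrees), with the muscle taken 24 h after the last bout. Each library came from a piece of powdered whole muscle, so fewer cells of a type and less RNA per cell cannot be told apart. The labels name a separate mouse for each library and give no sequencing batch.

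Between 19395125 and 30699216 read pairs were counted per mouse, and 16920 genes passed a filter on low counts, among them all 10 members. Levels are given as CPM, read counts scaled to an equal library size with the trimmed mean of M-values (TMM) method. Together the members made up 0.108% to 0.166% of a library, and the lowest count of any member in any mouse was 81, for Ctsk. The 8 markers of skeletal muscle fibres summed to between 126040 and 191712 CPM in every mouse, as the tissue label says. On the first principal component of all tested genes, which held 34.5% of the variance, Low Control mouse D9 lay at 71.4 and High Run mouse D62 at 46.7, while the other 13 mice lay between -17.7 and 13.8. Values of the members that rest on these mice are therefore also given without them, an alternative chosen after the data were seen. Differences of the other genes are given with all mice only.

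The aspartic protease Ctsd and the cysteine protease Ctsb were the most abundant members. Per kilobase of exons, so that genes of unequal length can be compared, the mean level over the 15 mice was 196 ± 46.0 CPM (SD, n = 15) for Ctsd and 67.2 ± 5.88 for Ctsb. Ctsd supplied 34.8% and Ctsb 30.7% of the summed CPM of the members. Ctsz followed at 30.3 ± 4.32 CPM per kilobase and Ctsl at 30.3 ± 16.8, which cannot be ordered beyond their spread. Ctsa at 20.0 ± 1.81 and Lgmn at 19.7 ± 4.37 were also alike within their spread. Ctss stood at 12.2 ± 6.11, Ctsc at 7.10 ± 1.11, Ctsk at 5.14 ± 1.65 and Ctsh at 2.60 ± 0.737 CPM per kilobase. With the length of the principal transcript in place of all exons, Ctsc moved up to 16.5 and Ctsh to 7.23, so that Ctsc stood above Ctss at 12.2 and Ctsh above Ctsk at 5.14.

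**Figure D1:**
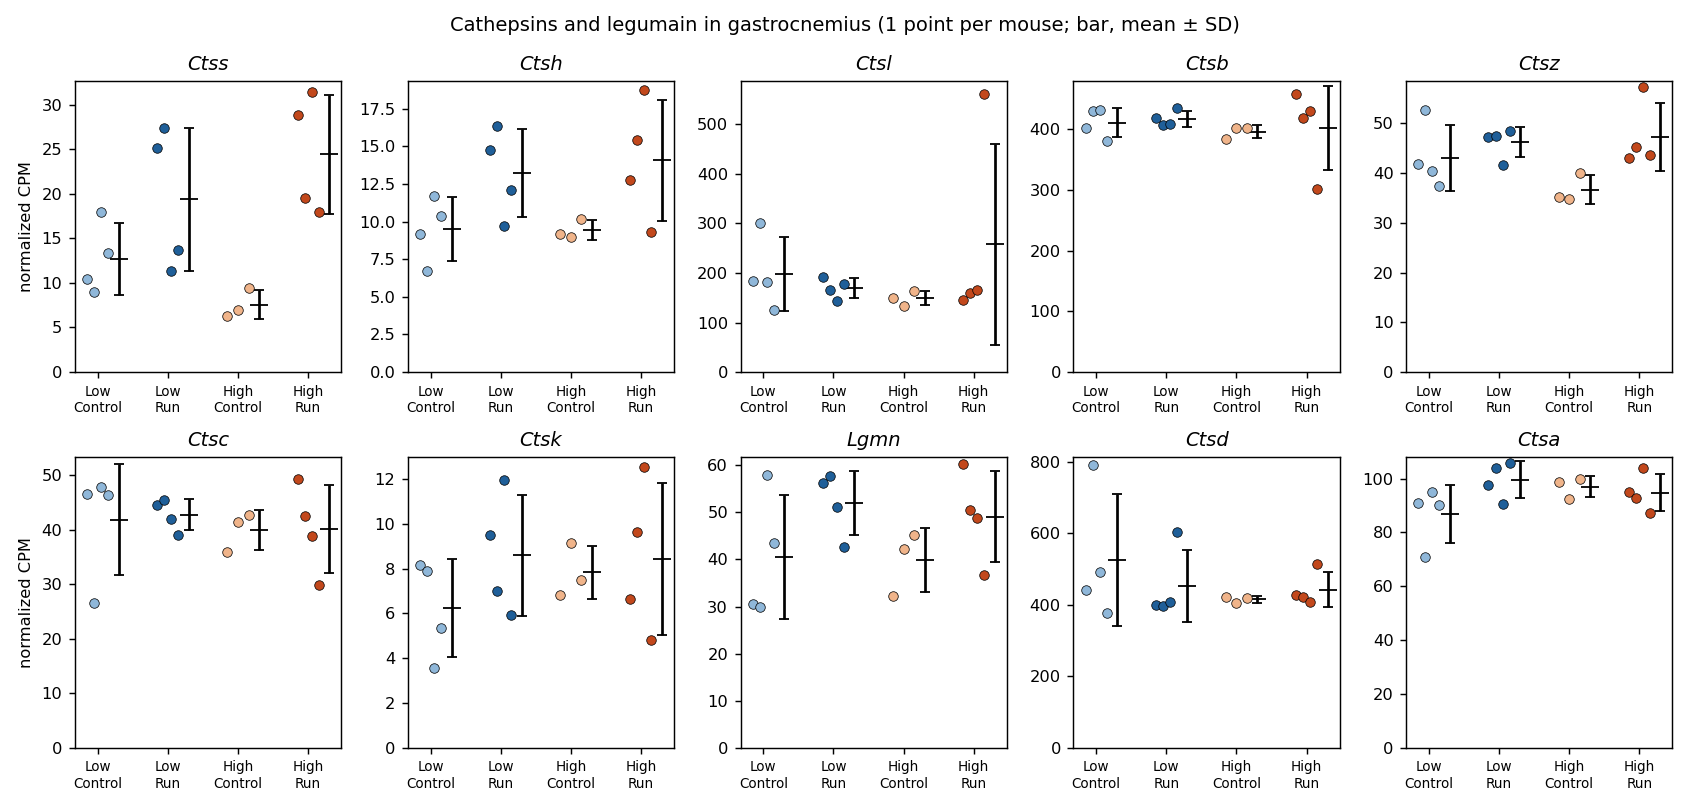
Normalized CPM (vertical axes, from 0) of the 10 members in each group (horizontal axes), with 1 point per mouse and the mean ± SD beside the points. The 4 High Run mice lie between 18.0 and 31.4 CPM for Ctss, above the 3 High Control mice between 6.29 and 9.43, and a lone High Run mouse sets the Ctsl mean.

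The steadiest members were Ctsa and Ctsb, whose highest mouse had 1.49 and 1.52 times the level of the lowest. Ctss varied most, with a range of 4.99 times between High Control mouse D23 and High Run mouse D53, followed by Ctsl with 4.52 times and Ctsk with 3.50 times. Ctss had its low and high ends in different groups. The range of Ctsl rested on mouse D62 at 562 CPM, since the next highest mouse was D9 at 301 CPM.

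Ctss encodes cathepsin S, the cysteine protease of antigen-presenting cells that trims the invariant chain from MHC class II molecules and stays active at neutral pH. The gene (ENSMUSG00000038642) lies on the plus strand at chr3:95526786-95556403 in build GRCm38. High Control mice had 6.29, 6.94 and 9.43 CPM, and High Run mice had 28.9, 19.6, 31.4 and 18.0 CPM. Every High Run mouse thus stood above every High Control mouse, and the group means were 24.5 ± 6.66 (SD, n = 4) and 7.56 ± 1.66 (SD, n = 3). The fitted difference was 1.70 (log2, SE 0.33), or 3.24-fold. Low Control mice had 10.4, 8.94, 18.0 and 13.4 CPM, and Low Run mice had 25.2, 27.3, 11.3 and 13.7 CPM. The Low groups overlapped, with mice D57 and D61 above all Low Control mice and mice D66 and D68 among them, and the difference was 0.61 (log2, SE 0.29).

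In order of mean level, Ctss went from High Control through Low Control at 12.7 ± 4.00 CPM and Low Run at 19.4 ± 8.04 CPM to High Run. Each neighbouring pair in this order overlapped, and the ends of the order did not. The difference between the run effects of High and Low mice, the Frailty × Run interaction, was 1.08 (log2, SE 0.44). High Control lay below Low Control by a log2 difference of -0.75 (SE 0.33). High Run differed from Low Run by 0.33 (log2, SE 0.29), within the spread of the overlapping groups, and this value was 0.14 without mouse D66 and 0.54 without mouse D61.

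Leaving out 1 mouse at a time kept the Ctss difference between High Run and High Control between 1.55 and 1.88 on the log2 scale. Without mice D9 and D62 it was 1.81 (SE 0.32). The Ctss interaction was 1.34 (log2, SE 0.43) without those mice, and between 0.87 and 1.30 with 1 mouse left out. The Ctss difference with running in Low mice was less steady, at 0.29 (log2, SE 0.29) with voom's sample weights, 0.39 without D61 and 0.82 without D11.

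The bases before the RefSeq start of Ctss are shown because this member had the widest range and because its neighbours in expression, below, include genes known as interferon targets. In the GRCm38.p6 table of promoters, 8 of the 10 members had an entry, with 10 starts in all (Ctsb and Ctsh had none). The 250 bases upstream of Ctss, chr3:95526536-95526785 on the plus strand, hold the letters GAAANNGAAA, the core of the element bound by interferon regulatory factors, 21 bases before the start (in capitals).

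Ctss: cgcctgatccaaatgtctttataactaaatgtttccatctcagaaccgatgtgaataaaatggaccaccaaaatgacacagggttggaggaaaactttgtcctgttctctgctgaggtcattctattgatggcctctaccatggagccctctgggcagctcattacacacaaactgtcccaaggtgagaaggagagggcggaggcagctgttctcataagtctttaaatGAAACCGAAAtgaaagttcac

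Both strands of the windows, from 250 bases before to 50 after each start, were searched for this motif, which was chosen after the promoters had been seen. It was in 1 of the 8 members with an entry, Ctss, and in 3.993% of the 27025 genes of the table (1 of 10 member windows, and 3.443% of all 32851 windows). A match of letters is a description of the window, and no binding was measured.

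The CLEAR core TCACGTGA, the palindromic E-box to which TFEB, TFE3 and MITF bind in genes of the lysosome, was in the windows of Ctsa and Ctsd, 2 of the 8 members, beside 1.125% of all genes in the table and 0.974% of windows. The Ctsd upstream bases, chr7:142387828-142388077 on the minus strand, and those of the second RefSeq start of Ctsa, chr2:164833523-164833772 on the plus strand, are shown to set them beside Ctss, with the core in capitals at -99 and -13 from the start.

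Ctsd: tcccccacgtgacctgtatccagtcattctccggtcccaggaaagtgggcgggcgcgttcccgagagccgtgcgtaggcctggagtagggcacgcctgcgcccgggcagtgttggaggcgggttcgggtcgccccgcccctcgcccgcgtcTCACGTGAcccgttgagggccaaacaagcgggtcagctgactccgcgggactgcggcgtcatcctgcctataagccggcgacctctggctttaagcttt

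Ctsa: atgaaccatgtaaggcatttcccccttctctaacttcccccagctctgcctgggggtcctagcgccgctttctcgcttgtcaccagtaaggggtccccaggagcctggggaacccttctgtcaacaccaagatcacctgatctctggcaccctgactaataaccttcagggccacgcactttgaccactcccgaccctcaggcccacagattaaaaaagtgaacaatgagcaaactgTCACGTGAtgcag

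The Ctsa window had another copy of the core 5 bases after the start. The wider E-box CACGTG, which lies inside the CLEAR core, was in the windows of Ctsa, Ctsd, Ctsl and Lgmn, 4 of the 8 members, beside 8.093% of all genes and 7.15% of all windows. The Ctss window had neither of these E-boxes, and the Ctsa and Ctsd windows had no match to GAAANNGAAA.

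**Figure D2:**
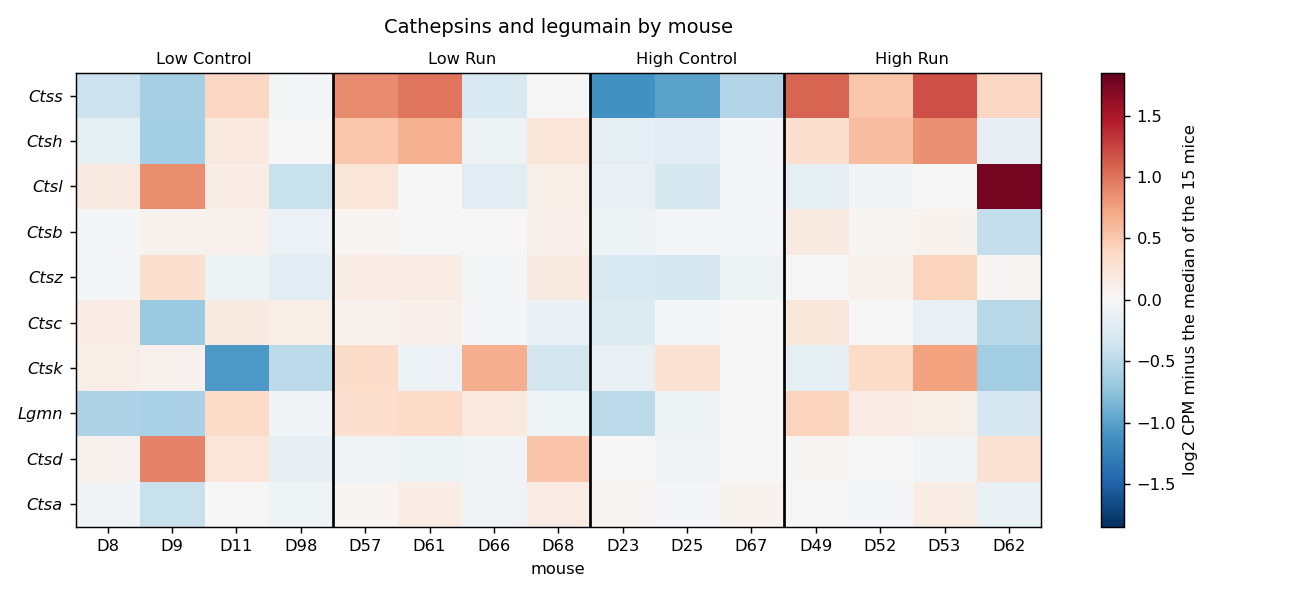
Level of each member (rows) in each of the 15 mice (columns, grouped) as log2 CPM minus the median of the 15 mice, red above and blue below. Ctss and Ctsh are red in most Run mice, and the columns of D9 and D62 differ from those of their own groups in Ctsl, Ctsc and Ctsd.

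Ctsh, Ctsz and Lgmn stood with Ctss on the higher side in run mice. Ctsh encodes cathepsin H, an aminopeptidase (ENSMUSG00000032359, chr9:90054152-90076089, plus strand). Its levels were 9.20, 6.71, 11.7 and 10.4 CPM in Low Control and 14.8, 16.3, 9.72 and 12.1 CPM in Low Run mice. In High Control mice they were 9.19, 8.97 and 10.2 CPM, and in High Run mice 12.8, 15.4, 18.7 and 9.32 CPM. Mouse D62 alone of the High Run mice lay within the High Control range. The difference with running was 0.48 (log2, SE 0.22) in Low and 0.57 (SE 0.24) in High mice, and 0.72 (SE 0.19) in High mice without D9 and D62.

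Ctsz encodes cathepsin Z, a carboxypeptidase also called cathepsin X (ENSMUSG00000016256, chr2:174427493-174439039, minus strand). High Control mice had 35.1, 34.8 and 40.1 CPM and High Run mice 42.9, 45.1, 57.3 and 43.5 CPM. The groups did not overlap, though the gap between D67 and D49 was small beside the spread within High Run. The difference was 0.37 (log2, SE 0.15), and 0.26 without mouse D53. In Low mice the groups overlapped, with means of 43.0 ± 6.69 and 46.2 ± 3.03 CPM (SD, n = 4 each), and the difference was 0.10 (log2, SE 0.13), or 0.20 without D9 and 0.04 without D98.

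Lgmn encodes legumain, the asparaginyl endopeptidase that cleaves after asparagine and helps to activate other cathepsins (ENSMUSG00000021190, chr12:102394084-102439813, minus strand). Low Control mice had 30.6, 29.9, 57.9 and 43.6 CPM and Low Run mice 56.2, 57.8, 51.2 and 42.7 CPM. High Control mice had 32.3, 42.2 and 45.3 CPM and High Run mice 60.2, 50.5, 48.7 and 36.7 CPM. Both pairs of groups overlapped, in Low mice through D11 and D98 and in High mice through D62. The difference was 0.36 (log2, SE 0.21) in Low and 0.30 (SE 0.23) in High mice, both within the spread between mice. The Low value was 0.57 without D11 and 0.23 without D9, and the High value was 0.16 without D23 and 0.41 without D62.

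Ctsl and Ctsd differed between mice more than between groups. Ctsl encodes cathepsin L, a cysteine endopeptidase known as one of the genes induced in wasting muscle (ENSMUSG00000021477, chr13:64359337-64370890, minus strand). Its levels were 185, 301, 182 and 124 CPM in Low Control and 193, 166, 143 and 178 CPM in Low Run mice. They were 150.5, 134 and 163 CPM in High Control and 146, 159, 165 and 562 CPM in High Run mice. The mean of High Run, 258 ± 203 CPM (SD, n = 4), was set by D62. The difference between High Run and High Control was 0.79 (log2, SE 0.40) with D62 and 0.06 without it. Without D9 and D62 the Ctsl interaction went from 1.01 (SE 0.55) to 0.02 (log2, SE 0.21).

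Ctsd encodes cathepsin D, the main aspartic protease of lysosomes (ENSMUSG00000007891, chr7:142375911-142388038, minus strand). Its highest mice were D9 at 792, D68 at 604 and D62 at 514 CPM, and the other 12 mice lay between 377 and 492 CPM. No group held more than 1 of these mice. The difference with running was -0.22 (log2, SE 0.20) in Low and 0.09 (SE 0.22) in High mice, and without D9 the Low value was 0.04, while without D62 the High value was 0.005.

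With all mice, Ctsb, Ctsc and Ctsa had small differences between groups, and Ctsk varied widely within them. Ctsb encodes cathepsin B, which acts as endopeptidase and as dipeptidyl carboxypeptidase (ENSMUSG00000021939, chr14:63122462-63145923, plus strand), and its group means ran from 396 ± 10.2 CPM (SD, n = 3) in High Control to 417 ± 13.0 CPM (SD, n = 4) in Low Run mice. Its lowest mouse was D62 at 301 CPM and its highest D49 at 457 CPM, both High Run. The Ctsb difference with running in High mice was 0.02 (log2, SE 0.14), and 0.13 (SE 0.10) without D9 and D62. Ctsc encodes cathepsin C, the dipeptidyl peptidase that activates granule serine proteases of leukocytes (ENSMUSG00000030560, chr7:88278085-88310888, plus strand). Its group means ran from 40.0 ± 3.66 CPM (SD, n = 3) in High Control to 42.7 ± 2.83 CPM (SD, n = 4) in Low Run mice. The lowest mice were D9 at 26.5 and D62 at 29.9 CPM. The Ctsc interaction was -0.03 (log2, SE 0.27), and 0.26 (SE 0.16) without these mice. In the same way, running in Low mice went from 0.03 (SE 0.18) to -0.15 (SE 0.11). High Control against Low Control went from -0.06 (SE 0.20) to -0.24 (SE 0.12).

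Ctsa encodes cathepsin A, the protective protein that also stabilizes lysosomal beta-galactosidase and neuraminidase (ENSMUSG00000017760, chr2:164832873-164841032, plus strand). It ranged from 71.0 CPM in D9 to 106 CPM in D68, and its differences with running were 0.20 (log2, SE 0.12) in Low and -0.03 (SE 0.13) in High mice, with a Low value of 0.10 without D9. Ctsk encodes cathepsin K, the collagen-degrading protease best known from osteoclasts (ENSMUSG00000028111, chr3:95499256-95509362, plus strand). Its counts were the fewest, between 81 and 374 per mouse, and it ranged from 3.58 CPM in D11 to 12.6 CPM in D53. The group means of Ctsk were 6.25 ± 2.18 CPM in Low Control, 8.60 ± 2.71 in Low Run, 7.84 ± 1.19 in High Control and 8.42 ± 3.40 in High Run mice. The Ctsk differences were 0.46 (log2, SE 0.31) in Low and 0.10 (SE 0.33) in High mice. The Low value was 0.24 without D66 and 0.79 with voom's sample weights, and the High value was -0.16 without D53 and 0.29 without D62.

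The genes Ctsk and Ctss are neighbours on chromosome 3, 17.4 kb apart with 0 annotated genes between them, and both are read from the plus strand. Their levels over the 15 mice had a Pearson r of 0.01 and a Spearman rho of 0.05. Mouse D53 had the highest level of both genes, at 12.6 CPM for Ctsk and 31.4 CPM for Ctss. Mouse D66 had the second highest Ctsk level at 12.0 CPM and the lowest Ctss level of its group at 11.3 CPM.

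Counts of members were read beside those of all genes. In edgeR's quasi-likelihood test at a false discovery rate (FDR) of 0.1, 0 genes (0.00% of 16920) and 0 members were called in any of 5 comparisons, which were running within Low mice, running within High mice, the interaction, and High with Low among Control and among Run mice. At an unadjusted p under 0.05, the Low run comparison held 1 member (Ctsh) and 13.4% of all genes, and the High run comparison held 3 members (Ctsh, Ctss and Ctsz) and 5.18%. Shares at that p cover both directions here and below. Of all genes, 1002 were higher and 1272 lower with running in Low mice, and 555 higher and 322 lower in High mice. The interaction held 1 member (Ctss) beside 7.93% of genes, High Control against Low Control 1 (Ctss) beside 5.86%, and High Run against Low Run 0 beside 2.51%. DESeq2's Wald test on all mice, at the same FDR, called 15 genes (0.0934%) in the High run comparison, of which 1, Ctss, is a member. It called 10 genes (0.0374%) in the Low run comparison, with 0 members, and 0 genes (0.00%) in each of the interaction and both comparisons of High with Low.

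For Ctss in High mice the call thus depended on the test and, within edgeR, on the count filter. Its adjusted p was 0.956 in edgeR with all groups and the count filter, where its unadjusted p ranked 2 of 16920. In edgeR with no count filter its adjusted p was 0.016. The adjusted p ran from 5.9e-06 to 1 over 14 alternative tests and left-out mice, of which 4 called it. All 14 gave a positive difference, but they reuse the same mice, whose groups did not overlap for Ctss, so the shared sign adds no support.

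In High mice 2 members, Ctss and Ctsz, had every Run mouse above every Control mouse, beside 3.47% of all genes, and 0 had every Run mouse below, beside 3.60%. In Low mice 0 members were without overlap in either direction, beside 3.35% of genes higher and 3.59% lower. The comparison of High Control with Low Control had 0 members, beside 5.13% higher and 5.27% lower, and that of High Run with Low Run 0 members, beside 0.721% and 0.774%. Without D9 and D62, 5 members (Ctsb, Ctsh, Ctss, Ctsz and Lgmn) were higher in High Run without overlap, beside 7.03% of genes. In the same setting Ctsc was lower in Low Run than in Low Control, and Ctsc and Ctss were lower in High Control than in Low Control, beside 4.42% and 7.23% of genes.

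**Figure D3:**
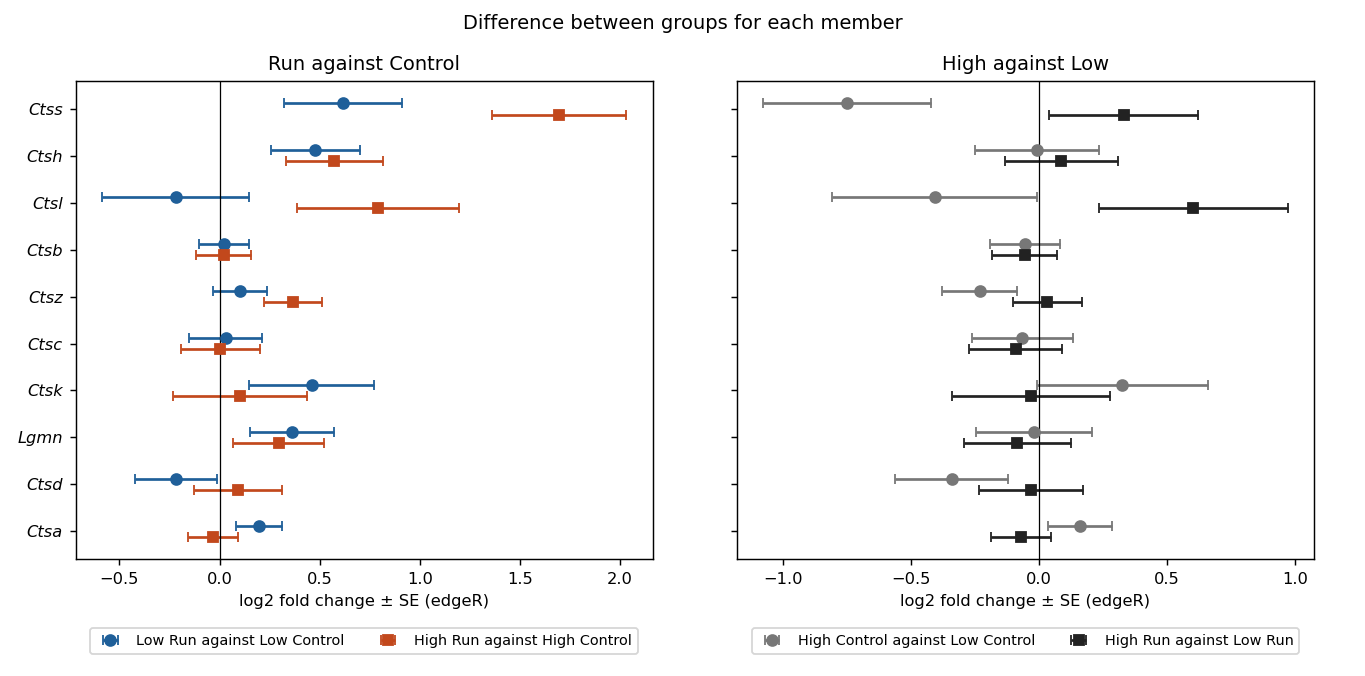
Log2 fold change ± SE from edgeR (horizontal axes) for each member (rows), with Run against Control on the left and High against Low on the right. Ctss lies at 1.70 in High and 0.61 in Low mice, and the wide bars of Ctsl come with mouse D62.

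The median of the members was small in both run comparisons. It was 0.15 (log2) in Low mice, with 8 of 10 members positive, beside a median of 0.02 and 51.9% positive over all 16920 genes. In High mice it was 0.20, with 9 of 10 positive, beside 0.05 and 57.2%. The medians were -0.06 for High Control against Low Control and -0.03 for High Run against Low Run, beside -0.02 and 0.01 over all genes.

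Over all 15 mice, Ctss, Lgmn and Ctsh were the members that followed the markers of macrophages most closely. All 14 macrophage markers had counts in every mouse, among them Adgre1, Cd68 and Csf1r. Their summed level was between 130 and 244 CPM in Low Control, 217 and 301 in Low Run, 116 and 172 in High Control, and 153 and 330 CPM in High Run mice. All 14 were positive with running in both Low and High mice, with medians of 0.47 and 0.81 (log2). At an FDR of 0.1, edgeR with the count filter called 0 of 14. An unadjusted p under 0.05 was found for 6 in Low and 7 in High mice, beside 13.4% and 5.18% of all genes. The part of macrophage number in the levels of the members was not tested.

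Over the 15 mice, the log2 level of Ctss had a Pearson r of 0.87 and a Spearman rho of 0.90 with the log2 summed macrophage level. Lgmn had 0.86 and 0.86, and Ctsh 0.82 and 0.89. These points share libraries and groups, and with the group means removed the r was 0.82 for Ctss, 0.86 for Lgmn and 0.76 for Ctsh. Without the mice farthest from the median of the summed level, D23 and D9, it was 0.82, 0.77 and 0.79. Ctsc had an r of 0.63 over the 15 mice, and of 0.82 with the group means removed, as high as that of Ctss. In the same order, Ctsa had 0.52 and 0.66, Ctsb 0.50 and 0.63, and Ctsz 0.44 and -0.04. Over the 15 mice, Ctsk had an r of 0.10, Ctsd of -0.33 and Ctsl of -0.30 with a rho of 0.004. The values of Ctsd and Ctsl rested on D9 and D62, since without these mice the r was 0.09 for Ctsd and 0.32 for Ctsl. In the same setting the r of Ctsb went from 0.50 to 0.76 and that of Ctsz from 0.44 to 0.75, while Ctss had 0.94, Lgmn 0.81, Ctsh 0.76 and Ctsk 0.02. The r of Ctsc was then 0.48 and that of Ctsa 0.28. Mouse D62 had a summed macrophage level of 153 CPM, within the High Control range, and a Ctss level of 18.0 CPM, above that range.

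**Figure D4:**
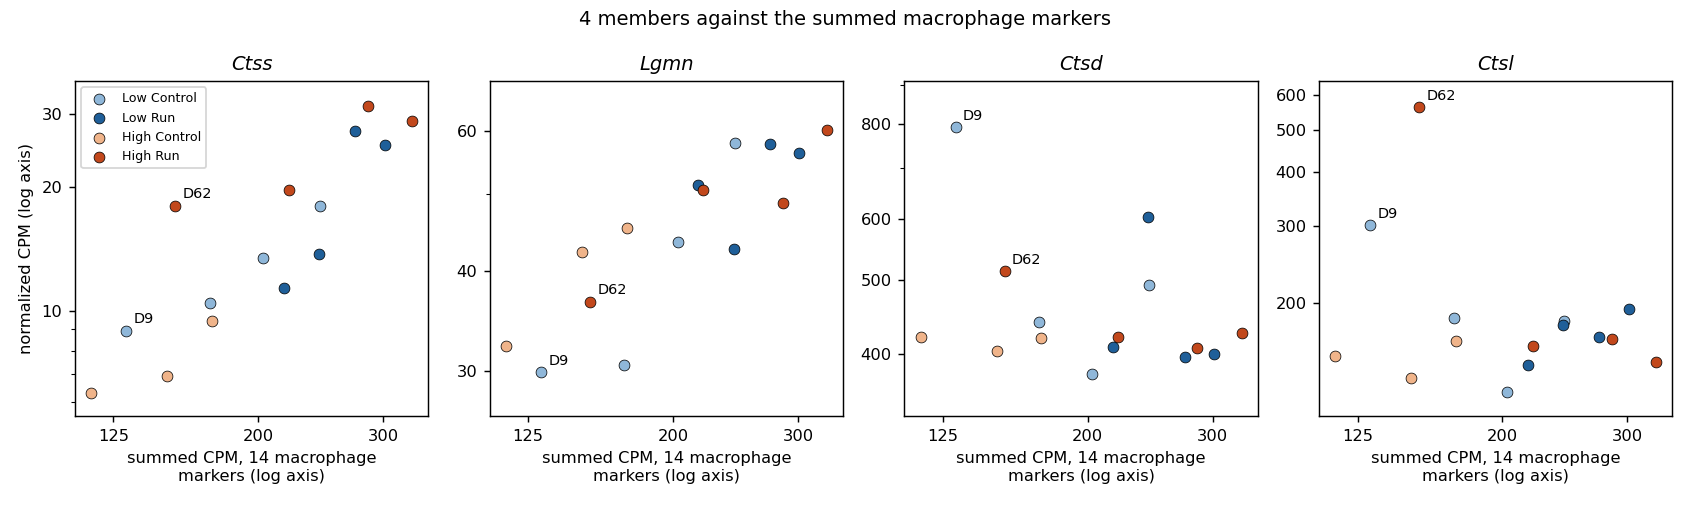
Level of 4 members (vertical axes, log scale) against the summed CPM of 14 macrophage markers (horizontal axes, log scale), with 1 point per mouse coloured by group and D9 and D62 marked. Ctss and Lgmn climb with the marker sum (r of 0.87 and 0.86). Ctsd and Ctsl have an r of -0.33 and -0.30 with all mice and of 0.09 and 0.32 without D9 and D62, and their highest points are D9 for Ctsd and D62 for Ctsl.

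Ctsh and Ctss had an r of 0.83 over the 15 mice (rho 0.90), and 0.90 without D9 and D62. Ctsh and Lgmn had 0.73, Ctsa and Ctsh 0.71, and Ctss and Lgmn 0.71. Without D9 and D62 these were 0.62, 0.54 and 0.75. Ctsz stood closer to Ctsh and Ctss in that setting, in which Ctsh and Ctsz went from 0.44 to 0.86 and Ctss and Ctsz from 0.60 to 0.79. Ctsc and Ctsl had -0.72 over all mice and 0.06 without D9 and D62, and Ctsc and Ctsd went likewise from -0.71 to -0.15. Those negative values came with the mice D9 and D62, in which Ctsc was lowest.

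The genes nearest to Ctss, by Pearson r of log2 CPM over the 15 mice, were Mpeg1 (0.89), C1qc (0.88), C1qa (0.88), C1qb (0.88), Ms4a6c (0.87), Pld4 (0.86), Ifi47 (0.85), Clec4a3 (0.85), Tap1 (0.85) and Cd300c2 (0.84). Mpeg1 encodes perforin-2 of macrophages and the C1q genes the recognition subunit of complement, whose main source is the macrophage. Ifi47 is an interferon-inducible GTPase, and Tap1 a peptide transporter of antigen presentation. With the group means removed, the first gene was H2-M3 (0.93), and the order changed. The r of Mpeg1 was then 0.71 (rank 155), that of Ms4a6c 0.71 (rank 143) and that of Ifi47 0.74 (rank 93), while that of C1qc was 0.87 (rank 5). For Lgmn the nearest genes were Fcgr1 (0.93), a receptor for immunoglobulin G, Gusb (0.92), the lysosomal beta-glucuronidase, and Oas1a (0.92), an antiviral enzyme of the interferon response. For Ctsh they were Cxcl16, Arpc1b and Tagln2 (0.93, 0.92 and 0.92).

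The other members had nearest genes of other kinds. Ctsd stood with Surf4 (0.98), a cargo receptor for export from the endoplasmic reticulum, Txnl1 and Psmd3 (0.94 and 0.93), and the r with Surf4 was 0.95 without D9 and D62. Ctsk stood with Chodl (0.88), Cd109 and Scarf2 (0.87 each). Ctsl stood with Arhgap26 (0.95), Elk4 and Las1l, and its r with Arhgap26 was 0.54 without D9 and D62. Ctsz stood with Eef1a1 (0.86), Pdia3 and Tubb5, Ctsc with Plekha6 (0.91), Prdm8 and Selenon, Ctsa with Ndufaf7 (0.94), Oma1 and Pmf1, and Ctsb with Cnpy4 (0.90), Gfpt2 and Gm6123. Without D9 and D62 the r was 0.65, 0.75 and 0.58 for the neighbours of Ctsc, 0.69, 0.68 and 0.67 for those of Ctsb, 0.82, 0.72 and 0.81 for those of Ctsa, and 0.88, 0.88 and 0.84 for those of Ctsz. These correlations are over 15 mice of 4 groups and were picked as the highest of 16910 genes.

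The rest of the lysosome was described from lists of genes around the members. In each list 0 genes were called at an FDR of 0.1 by edgeR with the count filter in either run comparison. List counts at an unadjusted p under 0.05 stand beside 13.4% of all genes in the Low and 5.18% in the High run comparison. Of 9 tested other cathepsins and lysosomal peptidases, 2 in Low (Napsa and Prcp) and 2 in High mice (Napsa and Ctse) had an unadjusted p under 0.05, all higher in Run. Napsa, the aspartic protease napsin A, had differences of 2.07 (log2, SE 0.47) in Low and 1.37 (SE 0.53) in High mice. Ctse, cathepsin E of immune cells, had 1.72 (SE 0.63) in High mice on counts of 3 to 42 per mouse. Tpp1, the lysosomal tripeptidyl peptidase, was lowest in both, at -0.10 (SE 0.12) and -0.22 (SE 0.13).

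The cystatins, which inhibit cysteine cathepsins, were positive in 3 of 3 tested genes in both comparisons. In each comparison 1 had an unadjusted p under 0.05, beside 13.4% of all genes in Low and 5.18% in High mice. These were Cst3 in Low mice at 0.33 (log2, SE 0.13) and Cstb in High mice at 0.39 (SE 0.16). The 30 glycosidases, lipases and sulfatases had medians of 0.10 in Low and 0.08 in High mice. Of these 30, 3 in Low and 2 in High mice had an unadjusted p under 0.05, all positive, beside 13.4% and 5.18% of all genes in both directions together. Their ends were Ppt1 at 0.40 (SE 0.18) and Gaa at -0.44 (SE 0.24) in Low mice, and Galns at 0.92 (SE 0.35) and Acp5 at -0.49 (SE 0.48) in High mice.

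Lysosomal membrane proteins (15 genes) had medians of -0.02 in Low and 0.05 in High mice, the 17 tested genes of the vacuolar ATPase, the pump that acidifies the lysosome, had 0.05 and 0.09, and 9 genes that sort enzymes to the lysosome had -0.10 and -0.08. At an unadjusted p under 0.05, 1 membrane gene was higher and 1, Npc1, lower with running in Low mice, and 1 was higher in High mice. The pump had 0 such genes in Low and 1 higher in High mice, and the sorting genes 1 higher in Low and 0 in High mice. Npc1, the cholesterol exporter of the lysosome, stood at -2.25 (log2, SE 0.76) in Low and 0.87 (SE 0.80) in High mice, on counts of 852 to 14672 per mouse. Whether D9 or D62 set these Npc1 values was not tested. Atp6v0d2, a pump subunit of osteoclasts and macrophages, stood at 2.03 (SE 0.71) in High mice on counts of 1 to 23 per mouse. The receptor Igf2r was lowest of the sorting genes in Low mice at -0.35 (SE 0.20) and highest in High mice at 0.23 (SE 0.21).

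The transcription factors of lysosomal genes had a median of -0.56 in Low and 0.18 in High mice over 5 tested genes. At an unadjusted p under 0.05, 2 were lower with running in Low mice, beside 13.4% of all genes, and 0 passed in High mice, beside 5.18%. The 2 were Mitf at -0.56 (log2, SE 0.21) and Foxo3 at -0.83 (SE 0.36). In High mice Mitf stood at 0.18 (SE 0.23) and Foxo3 at 0.51 (SE 0.39). Foxo1, a factor of muscle wasting and autophagy, was at -1.20 (log2, SE 0.65) in Low and 0.93 (SE 0.71) in High mice, on counts of 940 to 10537 per mouse. Tfeb was at 0.10 (SE 0.16) and -0.21 (SE 0.18). Whether D9 or D62 set the values of these factors was not tested. MHC class II presentation, where cathepsin S acts, had 7 of 7 genes positive in both, with medians of 1.12 and 0.70. At an unadjusted p under 0.05 it had 6 in Low and 0 in High mice, beside 13.4% and 5.18% of all genes. Ciita, the activator of these genes, had the highest value in both, 1.66 (SE 0.71) and 1.13 (SE 0.79). The summed MHC class II level overlapped between Run and Control mice in both. It was 77.4 to 173 CPM in Low Control and 94.2 to 461 CPM in Low Run mice. In High Control it was 119 to 147 CPM and in High Run 86.2 to 310 CPM, lowest in D62.

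**Figure D5:**
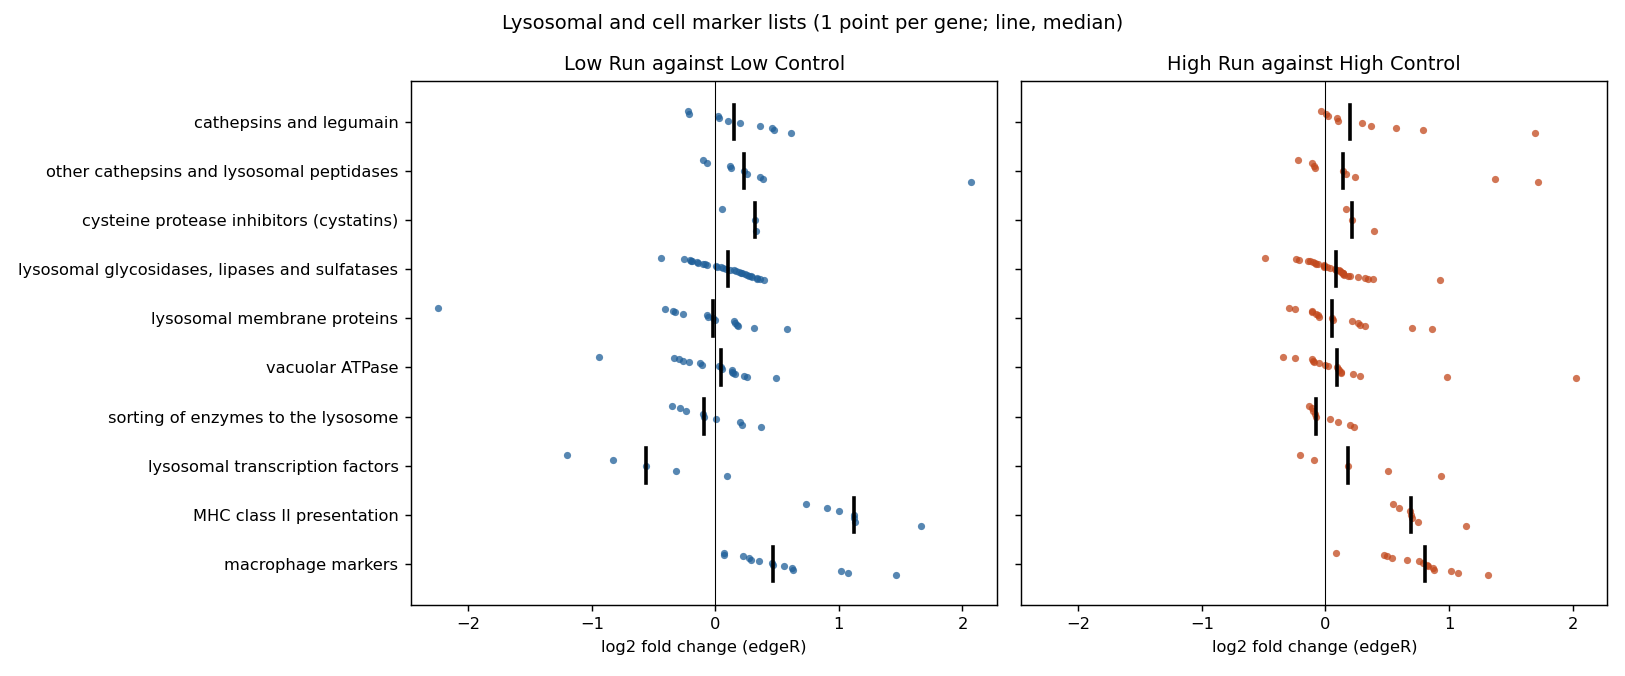
Log2 fold change from edgeR (horizontal axes) of each gene (points) in 10 lists (rows), for Low mice on the left and High mice on the right, with a line at the median of each list. The medians of the members are 0.15 and 0.20, while those of MHC class II presentation are 1.12 and 0.70 and of macrophage markers 0.47 and 0.81.

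Markers of other cells in the muscle differed between mice as well. The 6 lymphocyte markers summed to at most 1.90 CPM in Low Control and to between 1.10 and 23.2 CPM in Low Run mice, with Nkg7 at 0 counts in a mouse of both groups and Ms4a1 and Cd8a at 0 in a Low Control mouse. In High Control and High Run mice they summed to at most 1.81 and 3.34 CPM, with Cd8a at 0 in a High Control mouse. The 3 neutrophil markers reached 322 CPM in Low Run mouse D68, and Ly6g was at 0 in a mouse of each group. D68 in Low Run and D23 in High Control had both the highest neutrophil sum and the highest Ctsd of their group. In Low Control D8 had the highest neutrophil sum and D9 the highest Ctsd. In High Run the neutrophil sum was highest in D53, whose Ctsd was the lowest of its group. Fibroblast markers summed to between 600.0 and 1605 CPM in High Run mice, lowest in D62. Adipocyte markers were at 68.9 ± 8.88 CPM in Low Control and 41.7 ± 8.36 CPM in Low Run mice, and at 66.9 ± 39.8 and 50.2 ± 10.2 CPM in High mice. Endothelial markers lay between 172 and 326 CPM in every mouse, and Schwann cell markers were highest in D62 at 277 CPM. The part of these cells in the levels of the members was not tested.

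Several members overlap other genes. Ctsa overlaps Neurl2 and Pltp, Ctsb overlaps Fdft1 and Ctsz overlaps Nelfcd on the opposite strand, and the authors counted pairs by strand. On the same strand, the genes overlapping Ctsd (Gm49369) and Ctsl (Gm49230) had 0 counts, and that in Ctss (Hmgb1-ps5) at most 11.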

How the data were processed

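RNA sequencing of gastrocnemius from 15 mice was used. The authors aligned reads to mm10 with STAR 2.7.9a and counted uniquely aligned proper pairs per Ensembl gene on the same strand with featureCounts (Subread 2.0.3 per the labels). The deposited counts are whole numbers per gene without normalization. The authors also deposited DESeq2's variance-stabilized values, close to log2 for abundant genes, which were used here only for the principal components. All columns were used.

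The tests were run with edgeR 4.0.16 under R 4.3.3: filterByExpr, TMM, 1 mean per group over all 15 mice, the quasi-likelihood F-test and Benjamini-Hochberg adjustment over 16920 genes, called at an FDR of 0.1. Alternatives used DESeq2 1.42.0 and limma 3.58.1 (voom with sample quality weights), RLE scaling, no count filter, only the groups compared, and each mouse left out. Each SE of edgeR was computed from the F-test, as the absolute fitted difference divided by the square root of F. Those of DESeq2 and voom came from their own fits. Levels are TMM-scaled CPM, and correlations used log2 values (prior count 2). The code was tested on simulated data.

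Genes named were all members, the ends of each list, and the nearest genes by r (10 for Ctss, 3 for others). Napsa and Prcp beside Ctse, Cd68, Adgre1, Csf1r, H2-M3, Mitf and Foxo3 were named after their values were seen. Members, lists and tests were chosen with earlier results of these data known. Gene coordinates came from GENCODE M21 (GRCm38) and promoters from RefSeq (GRCm38.p6). P-values of the main test set each fitted difference against a spread between mice estimated over the 4 groups together. Depth limits Ctsk most, with 81 to 374 counts per mouse.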

Additional observations from a re-analysis of the deposited data

Results flagged for a closer look

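In 5 of the 30 groups of 4 mice tested (10 members in 3 groups, since 3 High Control mice are too few), 1 mouse lay far from the others. The rule was set to flag about 1 in 20 groups by chance. The members share the same mice, so the 30 are not independent and the 5 cannot be set against that rate. The share over all genes was not computed. The gap to the nearest mouse, as a share of the range of the group, was 0.954 for Ctsl in High Run mouse D62 (562 CPM, the others 146 to 165). It was 0.942 for Ctsd in Low Run mouse D68 (604 CPM, the others 396 to 408) and 0.932 for Ctsc in Low Control mouse D9 (26.5 CPM, the others 46.4 to 47.9). For Ctsz it was 0.846 in High Run mouse D53 (57.3 CPM, the others 42.9 to 45.1) and 0.838 in Low Run mouse D66 (41.7 CPM, the others 47.3 to 48.4). D62 and D9 are the mice that stood apart on the first principal component. D68 had the highest neutrophil markers, while High Run mouse D53, highest of its group in these, had the lowest Ctsd there. The cause of each gap was not tested.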

How the results depend on the processing

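Of 858 differences of the members, or of their median, under alternatives, 19 were counted as moved and 839 as the same. The 19 were all of single members, and each moved by more than the SE of its main fitted difference. Of them 9 were of Ctsl and 6 of Ctsd, and all came with voom's weights or without D9, D11 or D62. The number of genes called at an FDR of 0.1, 0 in edgeR with the count filter, was more under other tests and in edgeR with no count filter. In Low Run against Low Control it was 10 in DESeq2 on all mice, 28 in DESeq2 on only those groups and 86 with no count filter. In High Run against High Control it was 15, 53 and 19, and 45 in voom, with 1 member (Ctss) called in each of these. With no filter the interaction had 4 and High Run against Low Run 6, and DESeq2 on only the groups compared called 3 in the latter and 37 in High Control against Low Control. Each mouse left out gave 0 calls in edgeR. No paired analysis was possible because mouse numbers are not shared between groups. With 3 or 4 mice per group and 0 calls in the main edgeR test, the differences of Ctsh, Ctsz and Lgmn passed the threshold in 0 of the alternatives.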
